A study of Homo sapiens with 15 samples.

Results

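The 37 genes of the human mitochondrial genome carry symbols that start with MT-, and all symbols of that form in the deposited gene table were taken. They were 37 of its 37787 gene symbols, 13 of them protein-coding, 2 coding for rRNA and 22 for tRNA. The rule reads the symbol alone and no measured value. Of the 37 genes, 14 passed the filter on low counts, 12 of the mRNAs and both rRNAs, along with 13868 genes in all. MT-ND6 and the 22 tRNAs did not pass and are given as counts. The transcripts of the 14 genes were compared between 5 transfection conditions.

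RNA was sequenced from HGrC1 cells at passage 14, an immortalized line of non-luteinized human granulosa cells whose own FOXL2 gene is not mutated. The cells were transiently transfected for 4 h and then cultured for 24 h without serum, and 3 libraries lettered A, B and C were made for each condition. In Vectors the cells received empty plasmids. In FOXL2WT they received SMAD3, an effector of TGF-beta signalling, with wild-type FOXL2, a granulosa cell transcription factor, and in FOXL2C134W they received SMAD3 with the C134W form of FOXL2, the mutation of adult-type granulosa cell tumours. FOXL2WT + FOXO1 and FOXL2C134W + FOXO1 added FOXO1-3A, a mutant of the transcription factor FOXO1 that stays in the nucleus. Every condition but Vectors therefore carried SMAD3, and no library received SMAD3 or FOXO1 without FOXL2. The expression plasmids were pCS2+ for FOXL2 and pCDNA3 for FOXO1. The labels do not say whether the 3 libraries of a condition came from separate cultures, so p-values measure the spread between these libraries, which may be technical.

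The libraries held 14962245 to 25339094 estimated counts. Levels are given as CPM, the counts of a gene per 1000000 counts of the library total after scaling by the TMM method. The transfected genes were present where the labels put them. FOXL2 lay at 8.28 to 9.54 CPM in Vectors, 554 to 566 in FOXL2WT, 121 to 175 in FOXL2C134W, 374 to 401 in FOXL2WT + FOXO1 and 139 to 176 in FOXL2C134W + FOXO1. SMAD3 lay at 240.0 to 263 CPM in Vectors, 2595 to 2889 in FOXL2WT, 812 to 885 in FOXL2C134W, 957 to 976 in FOXL2WT + FOXO1 and 379 to 411 in FOXL2C134W + FOXO1. FOXO1 lay at 104 to 132 CPM with FOXL2WT and 39.1 to 47.2 with FOXL2C134W. In every comparison between a wild-type and a mutant condition the amount of plasmid transcript differed together with the mutation, and both cannot be told apart. For protein, the paper reports balanced levels of both FOXL2 forms and FOXO1 by immunoblot of samples cultured in parallel. It gives no such blot of SMAD3. Of the granulosa markers, KRT18 lay at 1668 to 1920 CPM, GATA4 at 129 to 154 and KITLG at 30.0 to 39.9. FSHR was at 0 counts in every library, and CYP19A1 and INHA never exceeded 4 counts. AMH, AMHR2, INHBA, NR5A1, STAR, CYP11A1 and HSD17B1 lay between 0 CPM (AMHR2) and 9.14 CPM (INHBA). All 4 markers of theca and Leydig cells stayed at or below 3 counts. Markers of epithelium, leukocytes and endothelium lay at 0 to 7.72 CPM, the highest being EPCAM.

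Human mitochondrial DNA is transcribed from both strands into long polycistronic RNAs, which are cut mainly at the tRNAs that stand between the other genes. The mRNAs encode core subunits of the respiratory chain and of ATP synthase, and the rRNAs build the ribosome that translates them inside the organelle. Most mitochondrial mRNAs and both rRNAs receive a short poly(A) tail, whereas tRNAs end in an added CCA and the MT-ND6 mRNA is known to lack a tail. The libraries were made from polyadenylated RNA. In granulosa cells mitochondria also carry out the first step of steroid synthesis.

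All 37 genes lie on chrM of hg38, a circle of 16569 bases, and none has an intron. In GENCODE 44, 9 of them are on the light strand, MT-ND6 and 8 tRNAs. The genes MT-RNR1 (chrM:648-1601) and MT-RNR2 (chrM:1671-3229) lead the order of the other strand. They are followed by MT-ND1 (chrM:3307-4262), MT-ND2 (chrM:4470-5511), MT-CO1 (chrM:5904-7445), MT-CO2 (chrM:7586-8269), MT-ATP8 (chrM:8366-8572) and MT-ATP6 (chrM:8527-9207). MT-CO3 (chrM:9207-9990), MT-ND3 (chrM:10059-10404), MT-ND4L (chrM:10470-10766), MT-ND4 (chrM:10760-12137), MT-ND5 (chrM:12337-14148) and MT-CYB (chrM:14747-15887) complete the order. The annotated lengths of all 37 transcripts in the deposited tables were those of GENCODE 44.

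In 6 of the 13 protein-coding genes the annotated sequence ends inside the stop codon, which is completed when the poly(A) tail is added. The last 21 bases of each are shown because this tail is what the libraries selected, with the genome-encoded bases of the stop codon in capitals, on the plus strand of hg38.
MT-ND1 (chrM:4242-4262): cagcattccccctcaaaccTA
MT-ND2 (chrM:5491-5511): cttttatactaataatcttaT
MT-CO3 (chrM:9970-9990): ccatctattgatgagggtctT
MT-ND3 (chrM:10384-10404): aaggattagactgaaccgaaT
MT-ND4 (chrM:12117-12137): tcattaccgggttttcctctT
MT-CYB (chrM:15867-15887): acaaaatactcaaatgggccT

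Neighbouring reading frames overlap in places, and reads there belong to both genes of a pair. MT-ATP6 and MT-CO3 share only the base at 9207, and the longer overlaps are shown. MT-ATP8 and MT-ATP6 share 46 bases and are known to sit on one mRNA, as do MT-ND4L and MT-ND4, which share 7 bases. The shared bases are in capitals.
MT-ATP8 and MT-ATP6 (chrM:8515-8584): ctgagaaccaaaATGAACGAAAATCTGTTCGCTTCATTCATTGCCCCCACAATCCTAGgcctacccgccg
MT-ND4L and MT-ND4 (chrM:10739-10787): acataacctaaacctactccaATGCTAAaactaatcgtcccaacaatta
Estimated counts of these 4 genes are uncertain to the extent that such reads were divided between them. Each of the 4 is counted below as an mRNA of its own, so the members of a pair are not independent.

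Mitochondrial transcripts made up a small part of these libraries. The 37 genes together held 0.273% ± 0.00631 of the estimated counts in Vectors (SD, n = 3), and 0.264 to 0.369 percent over all 15 libraries. MT-CO1 alone, the catalytic subunit of cytochrome c oxidase (complex IV), gave 835, 860.0 and 823 CPM in libraries A, B and C of Vectors.

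Per length, the mRNAs of complex IV had the highest counts among the mRNAs in Vectors. The libraries captured RNA by its poly(A) tail, so counts do not give the relative amounts of rRNAs and mRNAs in the cell. MT-CO1 lay at 544 ± 12.2 CPM per kb of annotated length (mean ± SD, n = 3) and MT-CO2, which takes electrons from cytochrome c, at 481 ± 18.4. MT-RNR2, the rRNA of the large ribosomal subunit, followed at 258 ± 6.10, then MT-CO3 at 220.4 ± 18.9 and MT-ND4, a proton-pumping subunit of NADH dehydrogenase (complex I), at 199 ± 3.22. These 5 genes stood apart from each other and from the next gene without overlap of the 3 libraries. MT-ND3 (141 ± 11.7), MT-ND2 (133 ± 6.23) and MT-ATP6 (133 ± 1.21), in that order, overlapped with their neighbours. So did the next group, MT-ND4L (111 ± 8.12), MT-ND1 (97.8 ± 6.32), MT-CYB (92.8 ± 3.39) and MT-RNR1 (87.5 ± 2.49), the rRNA of the small ribosomal subunit. MT-ATP8 (51.3 ± 4.65) and MT-ND5 (50.8 ± 1.85) overlapped at the low end, and MT-ND6 lay far below at 0.660 ± 0.252 CPM per kb.

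The deposited TPM values gave another order for the shortest genes. TPM divides by an effective length, which in the deposited tables was 5.20% of the annotated 207 bases for MT-ATP8, 16.7% of 297 bases for MT-ND4L and 28.0% of 346 bases for MT-ND3, against 83.9% of 1542 bases for MT-CO1. MT-ATP8 thereby ranked 1 by TPM in Vectors, at 1155 ± 111 TPM, and 13 of 15 per annotated length. MT-ND4L, at 774 ± 63.2 TPM, ranked 3 and 9 on the same scales. MT-CO1 had 760.1 ± 17.7 TPM. The ranks of these short genes thus depended on the length used, and comparisons of 1 gene between conditions did not use it.

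**Figure D1:**
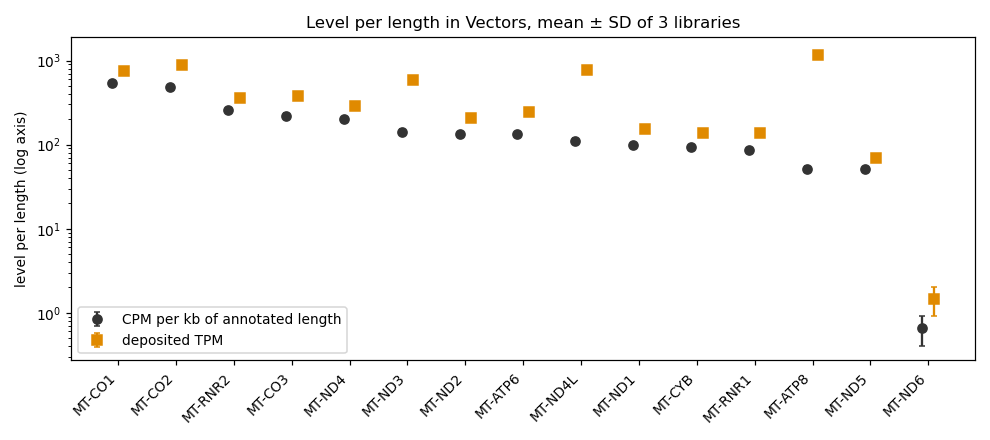
Level per length of the 13 mitochondrial mRNAs and 2 rRNAs in Vectors (vertical axis, log scale), as CPM per kb of annotated length (circles) and deposited TPM (squares), mean ± SD of 3 libraries, ordered by CPM per kb. MT-ATP8, MT-ND4L and MT-ND3 rise in the order when TPM is used, and MT-ND6 lies lowest on both scales.

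The order in the other conditions was close to that of Vectors. MT-CO1 and MT-CO2 led and MT-ND5 and MT-ND6 came last in all 5 conditions per annotated length. Libraries of MT-CO1 and MT-CO2 overlapped in every condition but Vectors. In FOXL2C134W MT-ND3 stood at rank 9, against rank 6 in the other 4 conditions. MT-ND4 stood at rank 3 in FOXL2C134W and rank 5 in every other condition, with 311 ± 35.6 CPM per kb in FOXL2C134W, where its libraries overlapped those of MT-CO3 (271 ± 18.7).

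In FOXL2C134W the mitochondrial mRNAs were higher than in Vectors. Of the 12 mRNAs tested, 11 rose and 0 fell (edgeR quasi-likelihood test, Benjamini-Hochberg adjusted p under 0.05 over all genes), against 7.48% of all genes tested that rose. The median log2 difference was 0.50 over the 12 mRNAs and 0.00 over all genes. For all 12 mRNAs the 3 libraries of FOXL2C134W lay above the 3 of Vectors, as they did for 15.7% of all genes. Neither rRNA passed the test. In bulk RNA, fewer cells of a type and less RNA per cell cannot be told apart, and the same holds for fewer mitochondria and less RNA per mitochondrion.

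Of complex I, which takes electrons from NADH, 5 of the 6 mRNAs tested rose. MT-ND4, a proton-pumping subunit, was at 269.8, 275 and 279 CPM in Vectors and 372, 453 and 461 in FOXL2C134W (libraries A, B and C). Library A of FOXL2C134W was the lowest of its condition but still above every library of Vectors. The log2 difference was 0.64 ± 0.08 (SE; edgeR adjusted p = 3.6e-05), the largest among the 5 in complex I. MT-ND2, another pumping subunit, rose from 132, 145 and 139.6 to 191, 209.7 and 216 CPM, a difference of 0.57 ± 0.06 (edgeR adjusted p = 9e-06). MT-ND1, which helps form the quinone-binding site, was at 86.5, 96.7 and 97.3 and 114, 125 and 143 CPM (log2 0.44 ± 0.08, edgeR adjusted p = 0.00069). For these genes no library of one condition reached into the range of the other.

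MT-ND5, the third pumping subunit, varied within FOXL2C134W, with library A lowest, at 103, 140.1 and 149.8 CPM against 90.1, 96.0 and 90.2 in Vectors. Its log2 difference was 0.51 ± 0.11 (edgeR adjusted p = 0.005). MT-ND4L, a small membrane subunit, was at 34.2, 34.3 and 30.1 CPM in Vectors and 42.5, 48.5 and 56.8 in FOXL2C134W, a difference of 0.58 ± 0.11 (edgeR adjusted p = 0.0015). MT-ND3, also a small membrane subunit, was the exception. Its values were 44.3, 52.4 and 49.4 CPM in Vectors and 57.2, 57.6 and 55.9 in FOXL2C134W, and the difference of 0.23 ± 0.10 did not pass the test (edgeR adjusted p = 0.15). It passed under 3 of the 11 other settings, a gene length offset (log2 0.31, edgeR adjusted p = 0.0033), a filter of at least 1 count in any library (0.23, edgeR adjusted p = 0.0034) and only the compared groups in the fit (0.22, edgeR adjusted p = 0.036).

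MT-CYB encodes cytochrome b, the core of complex III, which passes electrons from quinol to cytochrome c. It was at 102, 109 and 107 CPM in Vectors and 137, 150.3 and 163 in FOXL2C134W and rose by 0.50 ± 0.07 on the log2 scale (edgeR adjusted p = 5.1e-05). The 3 mRNAs of complex IV rose by less. MT-CO1 was at 974, 1037 and 1093 CPM in FOXL2C134W, a log2 difference of 0.30 ± 0.05 (edgeR adjusted p = 0.00082). MT-CO2 went from 327, 342 and 317 to 383, 396 and 437 CPM (log2 0.30 ± 0.06, edgeR adjusted p = 0.0022). MT-CO3 went from 167, 189.7 and 162 to 206, 202 and 229 CPM (log2 0.30 ± 0.07, edgeR adjusted p = 0.0057). The median log2 difference was 0.30 in complex IV and 0.54 in complex I, and whether the complexes differ was not tested.

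Both reading frames of ATP synthase (complex V), which sit on the same mRNA, rose. MT-ATP6, which forms the proton channel, was at 91.0, 90.7 and 89.4 CPM in Vectors and 114, 134 and 151 in FOXL2C134W, a log2 difference of 0.56 ± 0.08 (edgeR adjusted p = 0.00018). MT-ATP8, a small stalk subunit, was at 11.1, 11.3 and 9.52 and 11.8, 15.8 and 21.3 CPM, a difference of 0.61 ± 0.15 (edgeR adjusted p = 0.011). The value of MT-ATP8 rested on library C of FOXL2C134W, since without it the difference was 0.38 (edgeR adjusted p = 0.066), and the call was also lost without library C of Vectors (log2 0.54, edgeR adjusted p = 0.058). The other 10 mRNAs stayed called under each of the 11 other settings tried and without any one library.

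The rRNAs stood apart from the mRNAs. MT-RNR1 was at 80.9, 83.9 and 85.6 CPM in Vectors and 69.9, 71.5 and 82.4 in FOXL2C134W, with overlapping libraries and a log2 difference of -0.16 ± 0.06 (edgeR adjusted p = 0.087). It passed the test as lower without library C of FOXL2C134W (log2 -0.24, edgeR adjusted p = 0.015) and with a filter of at least 1 count in any library (edgeR adjusted p = 0.04). MT-RNR2 was at 402, 411 and 392 and 366, 389 and 411 CPM, a difference of -0.05 ± 0.05 (edgeR adjusted p = 0.6). The ratio of mRNA to rRNA counts, which needs no scaling between libraries, was 4.53 to 4.65 in Vectors, 4.84 to 5.05 in FOXL2WT and 6.21 to 6.44 in FOXL2C134W. It also depends on how well each RNA was captured by its poly(A) tail, which was not measured. The 3 conditions did not overlap in this ratio, and FOXL2C134W had the highest values of all 5.

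**Figure D2:**
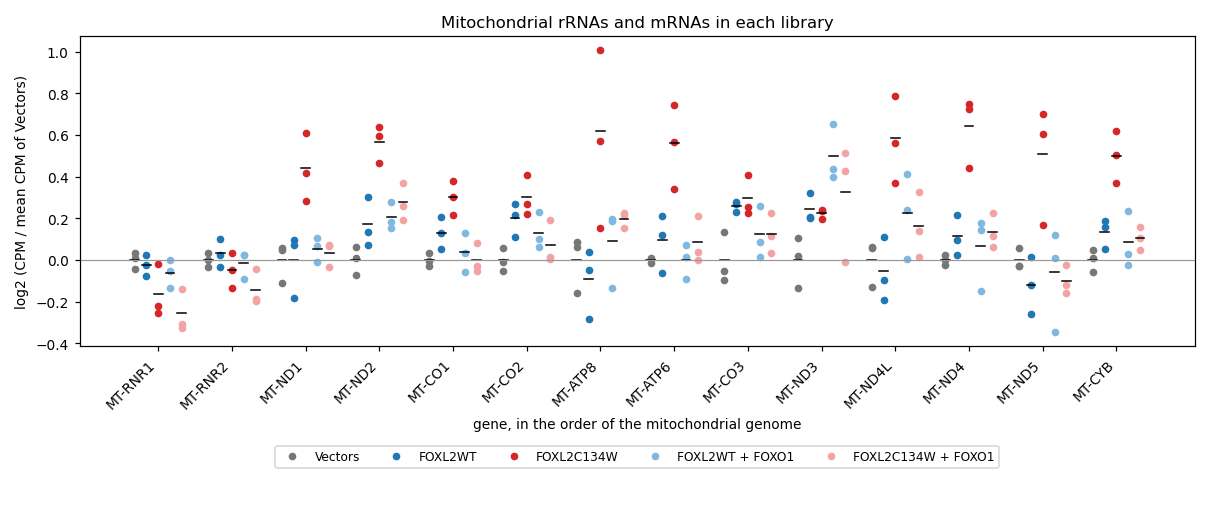
CPM of each library relative to the mean of Vectors (vertical axis, log2) for the 14 tested mitochondrial genes in genome order, with 1 point per library, colours for the 5 conditions and a bar at the condition mean. FOXL2C134W has the highest mean in 11 of the 12 mRNAs, the exception being MT-ND3, and its points spread most for MT-ATP8 and MT-ND5.

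The comparison of FOXL2C134W with FOXL2WT sets the mutant against the wild-type condition, which also had higher levels of the FOXL2 and SMAD3 transcripts. Of the 12 mRNAs, 9 were higher in FOXL2C134W and 0 lower, against 7.13% of all genes higher. The median log2 difference was 0.42 over the mRNAs and -0.01 over all genes. The libraries of both conditions did not overlap in 9 of the 12 mRNAs, against 14.8% of all genes with higher libraries in FOXL2C134W. Both comparisons of FOXL2C134W use the same 3 libraries of that condition.

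The log2 difference was largest for MT-ATP8, MT-ND4L, MT-ND5 and MT-ND4, in that order. MT-ATP8 was at 10.3, 8.73 and 10.9 CPM in FOXL2WT, below every library of FOXL2C134W, with a log2 difference of 0.69 ± 0.16 (SE; edgeR adjusted p = 0.0081). This value fell to 0.46 without library C of FOXL2C134W but stayed past the threshold. MT-ND4L was at 30.8, 28.8 and 35.4 CPM in FOXL2WT (log2 0.63 ± 0.11, edgeR adjusted p = 0.0014). MT-ND5 was at 84.8, 76.9 and 92.9 CPM (log2 0.62 ± 0.12, edgeR adjusted p = 0.0018). For both, the FOXL2WT libraries reached below those of Vectors, and all stayed below those of FOXL2C134W. MT-ND4 was at 293, 279 and 319 CPM in FOXL2WT (log2 0.53 ± 0.08, edgeR adjusted p = 0.00041).

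MT-ATP6 was at 98.3, 86.6 and 104 CPM in FOXL2WT, a difference of 0.46 ± 0.08 (edgeR adjusted p = 0.0016). For MT-ND1 (100, 82.4 and 98.2 CPM in FOXL2WT) the difference was 0.44 ± 0.08 (edgeR adjusted p = 0.0012), and for MT-ND2 (152, 146 and 171 CPM) it was 0.39 ± 0.06 (edgeR adjusted p = 0.00054). MT-CYB, at 118, 109.7 and 121 CPM in FOXL2WT, differed by 0.36 ± 0.07 (edgeR adjusted p = 0.0015). These 4 and the preceding 4 mRNAs stayed called under the 11 other settings and without any one library.

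The mRNAs of complex IV and MT-ND3 were nearest between the mutant and the wild-type condition. MT-CO1, at 918, 871 and 970.0 CPM in FOXL2WT, was higher in FOXL2C134W by 0.17 ± 0.05 (edgeR adjusted p = 0.046). It lost the call with a replicate block (edgeR adjusted p = 0.056) and without any of 4 libraries, A and B of FOXL2WT and B and C of FOXL2C134W (edgeR adjusted p = 0.11 to 0.22). MT-CO2 was at 382, 355 and 396 CPM in FOXL2WT and overlapped with FOXL2C134W, with a difference of 0.10 ± 0.06 (edgeR adjusted p = 0.32) that passed only with a gene length offset (log2 0.19, edgeR adjusted p = 0.036). MT-CO3, at 209, 208 and 203 CPM, differed by 0.04 ± 0.07 (edgeR adjusted p = 0.77), and MT-ND3, at 56.1, 56.2 and 60.9 CPM, by -0.02 ± 0.10 (edgeR adjusted p = 0.92). The sign of both turned when 1 library was left out. MT-RNR1 (-0.14 ± 0.06) and MT-RNR2 (-0.08 ± 0.05) did not pass the test either (edgeR adjusted p = 0.18 and 0.36), except MT-RNR1 as lower without library C of FOXL2C134W (edgeR adjusted p = 0.045).

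Within the mitochondrial mRNAs the balance between complexes differed along with the condition. Complex IV took 59.4 to 60.7 percent of all mitochondrial mRNA counts in Vectors, 60.8 to 62.1 in FOXL2WT and 55.1 to 57.7 in FOXL2C134W. Complex I took 30.0 to 31.3, 29.0 to 30.1 and 32.5 to 34.8 percent. The ranges of FOXL2C134W did not overlap with those of either other condition in both shares. The count of MT-ND4 relative to MT-CO3 was 1.45 to 1.72 in Vectors, 1.34 to 1.57 in FOXL2WT and 1.81 to 2.24 in FOXL2C134W. These shares and ratios are descriptions without a test.

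In FOXL2WT against Vectors, 1 of the 12 mRNAs, MT-CO3, rose and 0 fell, against 2.46% of all genes that rose and 6.07% called in either direction. Of the 12, 5 had an unadjusted edgeR p under 0.05, as did 2878 of the 13868 genes tested. With a filter of at least 1 count in any library 5 were called, and 6 with only the compared groups in the fit. Calls over all genes rose from 842 to 1345 and 1690 in these fits. In 7 of the 12 mRNAs all libraries of FOXL2WT lay above all libraries of Vectors, as they did for 15.2% of all genes. Its CPM were 209, 208 and 203 in FOXL2WT and 167, 189.7 and 162 in Vectors, a difference of 0.26 ± 0.07 (SE; edgeR adjusted p = 0.03). The call was lost without any one of 5 of the 6 libraries, library B of Vectors being the exception (edgeR adjusted p = 0.056 to 0.14). MT-CO2 (log2 0.20 ± 0.06, edgeR adjusted p = 0.056) and MT-ND3 (log2 0.25 ± 0.10, edgeR adjusted p = 0.16) were among the others without overlap and did not pass the test. The differences of the 12 mRNAs ran from -0.11 for MT-ND5 to 0.26 for MT-CO3, with a median of 0.12. MT-RNR1 and MT-RNR2 differed by -0.03 ± 0.06 and 0.03 ± 0.05 and were not called.

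**Figure D3:**
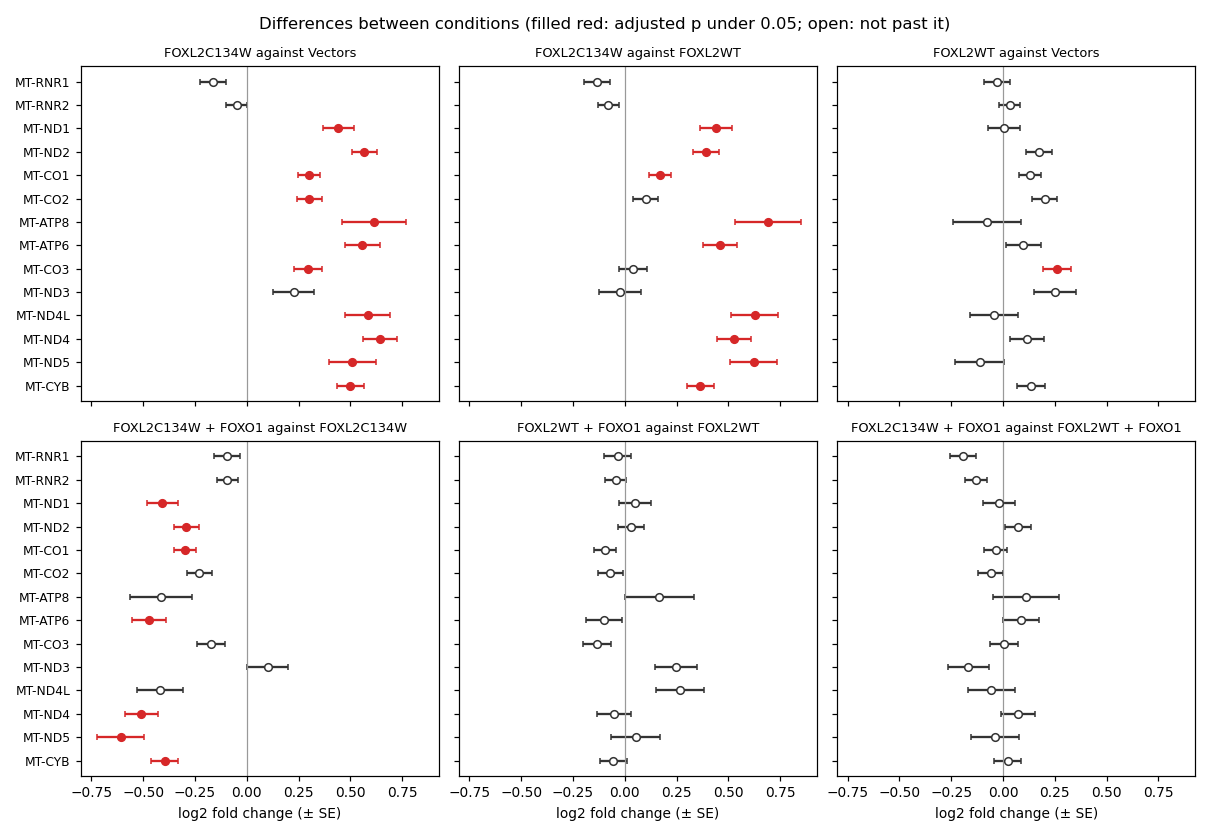
Log2 fold change with its standard error (horizontal axis) of the 14 tested mitochondrial genes in genome order, 1 panel for each of 6 comparisons, with filled red points past an adjusted p of 0.05. The mRNAs lie to the right in both comparisons of FOXL2C134W without FOXO1, except MT-ND3 against FOXL2WT, and to the left, except MT-ND3, when FOXO1 was added to FOXL2C134W, while no rRNA point is filled in any panel.

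Addition of FOXO1 addressed whether this factor modifies what FOXL2 does. The transcript of SMAD3, one of the transfected genes, fell at the same time, by 1.11 ± 0.05 on the log2 scale with FOXL2C134W and by 1.51 ± 0.05 with FOXL2WT (edgeR adjusted p = 8.1e-11 and 1.5e-13). FOXL2 fell by 0.55 ± 0.09 with FOXL2WT (edgeR adjusted p = 0.031) and differed by 0.05 ± 0.10 with FOXL2C134W (edgeR adjusted p = 0.92). Presence of FOXO1 and the lower level of SMAD3 therefore cannot be told apart. With FOXL2C134W, 7 of the 12 mRNAs fell and 0 rose, against 0.707% of all genes that fell. The median log2 difference was -0.40 over the mRNAs and 0.00 over all genes. In 10 of the 12 mRNAs every library with FOXO1 lay below every library without it, as for 7.72% of all genes. The comparison shares its 3 FOXL2C134W libraries with those above, so a high value in them enters both.

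MT-ND5 was at 90.7, 84.6 and 82.5 CPM in FOXL2C134W + FOXO1 and fell the most, by 0.61 ± 0.11 on the log2 scale (edgeR adjusted p = 0.019). MT-ND4, at 321, 297 and 286 CPM, fell by 0.51 ± 0.08 (edgeR adjusted p = 0.01), and MT-ATP6, at 105, 90.4 and 92.7 CPM, by 0.47 ± 0.08 (edgeR adjusted p = 0.015). For each of them all 3 libraries with FOXO1 lay below the 3 without it. MT-ND1 was at 97.9, 98.2 and 91.4 CPM and fell by 0.41 ± 0.08 (edgeR adjusted p = 0.019). MT-CYB, at 118, 114 and 109 CPM, fell by 0.40 ± 0.07 (edgeR adjusted p = 0.013). MT-CO1 fell by 0.30 ± 0.05 to 888, 822 and 809.9 CPM, across its range in Vectors. MT-ND2 fell by 0.29 ± 0.06 to 179.5, 166 and 158 CPM, still above each library of Vectors.

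Of the other 5 mRNAs, MT-CO2 (-0.23 ± 0.06), MT-CO3 (-0.17 ± 0.07), MT-ND4L (-0.42 ± 0.11) and MT-ATP8 (-0.41 ± 0.15) had negative log2 differences that did not pass the test (edgeR adjusted p = 0.083 to 0.32). MT-ND3 had a positive one, 0.10 ± 0.10 (edgeR adjusted p = 0.79), with 69.4, 65.5 and 48.4 CPM in FOXL2C134W + FOXO1. The rRNAs differed by -0.09 ± 0.06 for MT-RNR1 and -0.09 ± 0.05 for MT-RNR2, neither of them called. The 7 calls rested on single libraries. None remained without library B or C of FOXL2C134W or without library C of FOXL2C134W + FOXO1, 4 were made without library A of FOXL2C134W + FOXO1, and 10 without library A of FOXL2C134W. Calls over all genes moved as well, from 99 to 5 in each fit that left no mRNA called. They were 11 in the fit with 4 mRNAs called and 355 in that with 10. The median over the 12 mRNAs stayed between -0.48 and -0.28 in these fits.

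With FOXL2WT, addition of FOXO1 gave 0 calls among the 12 mRNAs by edgeR and 0 by DESeq2, against 0.0505% of all genes by edgeR. An unadjusted edgeR p under 0.05 was seen in 2 of the 12 mRNAs and in 1266 of the 13868 genes tested. The median log2 difference was -0.01. The highest values were those of MT-ND4L (0.26 ± 0.12, edgeR adjusted p = 0.51) and MT-ND3 (0.25 ± 0.10, edgeR adjusted p = 0.49). MT-ND3 was at 76.5, 64.1 and 65.9 CPM in FOXL2WT + FOXO1, the highest mean of the 5 conditions and the only mRNA whose highest mean was not in FOXL2C134W. MT-ND4 was at 311, 303 and 247 CPM in FOXL2WT + FOXO1, with 1 library below and 2 inside the range of FOXL2WT. MT-CO3 had the lowest difference, -0.14 ± 0.07.

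The effect of FOXO1 with FOXL2C134W minus its effect with FOXL2WT, the interaction, was negative in all 12 mRNAs, with a median of -0.36. It passed the test as lower in 2 of them, against 1.25% of all genes. For MT-ND4L the difference of effects was -0.68 ± 0.16 (edgeR adjusted p = 0.041) and for MT-ND1 -0.46 ± 0.11 (edgeR adjusted p = 0.047). MT-ND5 (-0.66 ± 0.16) and MT-ND4 (-0.46 ± 0.12) had similar or larger sizes and adjusted p of 0.053 and 0.056 by edgeR. The count moved between 0 and 9 with the settings tried and between 0 and 8 when 1 library was left out, with 0 under a replicate block. MT-RNR1 (-0.06 ± 0.09), MT-RNR2 (-0.05 ± 0.07) and MT-CO3 (-0.03 ± 0.10) were nearest to 0.

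With FOXO1 present, no tested mitochondrial gene was called by edgeR between the mutant and the wild-type condition. None of the 12 mRNAs was called by edgeR or DESeq2, against 0.144% of all genes called by edgeR. At so low a share of all genes, the lack of a call says little about these mRNAs. None had an unadjusted edgeR p under 0.05, a threshold that 1878 of the 13868 genes tested passed. The log2 differences ran from -0.17 for MT-ND3 to 0.11 for MT-ATP8, with a median of -0.01. MT-RNR1 (-0.19 ± 0.06) and MT-RNR2 (-0.13 ± 0.05) had the most negative values beside MT-ND3 and were not called (edgeR adjusted p = 0.22 and 0.29). MT-RNR1 was at 83.5, 76.0 and 80.4 CPM in FOXL2WT + FOXO1 and 75.8, 66.5 and 67.4 in FOXL2C134W + FOXO1, without overlap. The ratio of mRNA to rRNA counts did not overlap either, at 4.80 to 5.15 in FOXL2WT + FOXO1 and 5.35 to 5.49 in FOXL2C134W + FOXO1, a description without a test.

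As a share of all counts, the 13 mRNAs took 0.221, 0.230 and 0.220 percent in libraries A, B and C of Vectors, 0.245, 0.229 and 0.258 in FOXL2WT and 0.270, 0.297 and 0.319 in FOXL2C134W. With FOXO1 the shares were 0.252, 0.238 and 0.220 percent in FOXL2WT + FOXO1 and 0.248, 0.230 and 0.222 in FOXL2C134W + FOXO1. Each library of FOXL2C134W lay above every other library, and FOXL2WT, FOXL2WT + FOXO1 and FOXL2C134W + FOXO1 overlapped. The 2 rRNAs took 0.0415 to 0.0511 percent over the 15 libraries, with the lowest condition mean in FOXL2C134W + FOXO1 (0.0432% ± 0.00260, SD, n = 3) and the highest in FOXL2WT (0.0491% ± 0.00186). Libraries of 1 condition moved together across the mRNAs. Library C was highest and library A lowest in FOXL2C134W for 11 and 10 of the 12 mRNAs, and in FOXL2C134W + FOXO1 library A was highest for 11.

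**Figure D4:**
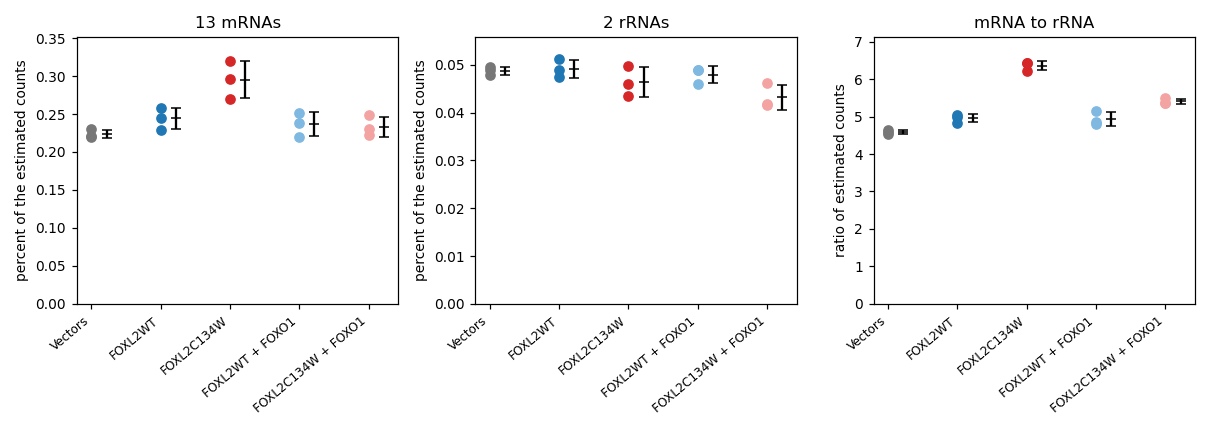
Share of all estimated counts in the 13 mitochondrial mRNAs (left) and the 2 rRNAs (middle), in percent, and the ratio of mRNA to rRNA counts (right), with 1 point per library and mean ± SD of 3 libraries beside it, by condition. The mRNA share of FOXL2C134W lies above that of every other condition, while the rRNA share of FOXL2C134W overlaps that of every other condition.

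The remaining 23 genes were at the limit of detection. MT-ND6, the complex I subunit read from the light strand, had 7, 10 and 6 counts in the 3 libraries of Vectors, 2, 0 and 3 in FOXL2WT, 8, 9 and 16 in FOXL2C134W, 3, 6 and 3 in FOXL2WT + FOXO1 and 3, 4 and 8 in FOXL2C134W + FOXO1. Its counts were lowest in FOXL2WT and highest in FOXL2C134W, at depths that bear no fold change. Of the 22 tRNAs, 6 had 0 counts in all 15 libraries, and 13 had counts but never more than 3. A value of 0 in a single library, taken alone, allows up to 3 expected counts. The other 3 were MT-TN with 1 to 13 counts, MT-TL1 with 0 to 12 and MT-TT with 0 to 4. All tRNA counts together came to 196, against 795403 counts in the mRNAs.

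Nuclear DNA holds copies of mitochondrial genes, and reads can be divided between a gene and its copy. The gene table listed 407 such copies, of which 9 had more than 3 counts in some library. The most abundant, MTATP6P1, had 10.0 to 15.9 percent of the counts of MT-ATP6, MTND2P28 2.74 to 4.19 percent of those of MT-ND2 and MTND4P12 0.585 to 1.15 percent of those of MT-ND4. Of 4 copies tested, these 3 were higher in FOXL2C134W than in Vectors, against 7.48% of all genes that rose. The log2 differences were 0.65 ± 0.13, 0.56 ± 0.16 and 0.67 ± 0.18 (edgeR adjusted p = 0.0023, 0.022 and 0.016), beside 0.56, 0.57 and 0.64 for the mitochondrial genes. MTND1P23, the other copy tested, was not called (-0.37 ± 0.89, edgeR adjusted p = 0.84). The calls of MTND2P28 and MTND4P12 were each lost without any one of 3 libraries. None of the 4 copies tested was called between FOXL2C134W and FOXL2WT by edgeR, against 11.2% of all genes. MTND1P23, with at most 1.68 CPM, and MTND4P9, with at most 0.529 CPM, complete the 5 copies with the highest mean counts. The values of MT-ATP6, MT-ND2 and MT-ND4 are uncertain by such divided reads, and the copies' part in the differences was not tested.

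Nuclear genes that act on mitochondrial RNA were followed as a list. Of 42 genes for transcription, processing and decay of mitochondrial RNA, 5 rose and 0 fell in FOXL2C134W against Vectors, against 7.48% of all genes that rose and 14.7% called in either direction, and their median was 0.05. Those with the smallest adjusted p were TWNK, the helicase of mitochondrial DNA replication (0.28 ± 0.06, edgeR adjusted p = 0.0036), LRPPRC, which stabilizes mitochondrial mRNAs (0.18 ± 0.05, edgeR adjusted p = 0.019), and ELAC2, which cuts precursors at the 3′ end of tRNAs (0.14 ± 0.04, edgeR adjusted p = 0.021). The call of ELAC2 was lost without any one of 5 of the 6 libraries, that of LRPPRC without library B of either condition, and all 3 with DESeq2 and transcript length offsets (adjusted p = 0.11 to 0.3). The other genes called were PTCD1 (0.41 ± 0.12, edgeR adjusted p = 0.028) and RNASEH1 (0.16 ± 0.05, edgeR adjusted p = 0.049), which are named here after their values were seen. The call of PTCD1 was lost without any one of 3 of the 6 libraries and that of RNASEH1 without any one of the 6. LRPPRC was at 279.6, 278 and 284 CPM in Vectors, 303, 302 and 299.9 in FOXL2WT and 307, 329 and 317 in FOXL2C134W. In FOXL2WT the libraries of LRPPRC, TWNK and ELAC2 also lay above all those of Vectors, without a call. The levels of LRPPRC were 337, 316 and 364 CPM in FOXL2C134W + FOXO1, where the mitochondrial mRNAs were lower.

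Against FOXL2WT, 1 of these 42 genes was called in FOXL2C134W, against 11.2% of all genes, with a median of -0.02. MTERF3, a mitochondrial factor that acts on transcription and ribosome assembly, was lower (log2 -0.19 ± 0.06, edgeR adjusted p = 0.0498). It was called under 1 of the 11 other settings and lost without any one of 4 of the 6 libraries. In FOXL2WT against Vectors, RNASEH1 (0.19 ± 0.05) and TRMT10C (0.18 ± 0.05) rose and MGME1 (-0.20 ± 0.06) fell, all of them factors of mitochondrial nucleic acid metabolism (edgeR adjusted p = 0.037, 0.047 and 0.044). These were 3 of 42, against 6.07% of all genes called, and TRMT10C was called under 4 of the 11 other settings. The 3 calls were each lost without 5 of the 6 libraries in turn. Addition of FOXO1 gave no call in the list in either background, against 0.0505% of all genes with FOXL2WT and 0.707% falling with FOXL2C134W. At shares this low, the lack of a call says little about the list. MTERF3 differed between the backgrounds by 0.39 ± 0.09 (edgeR adjusted p = 0.033).

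Among 7 tested regulators of mitochondrial biogenesis, 2 coactivators of the PGC-1 family rose in FOXL2C134W against Vectors, against 7.48% of all genes that rose. PPRC1 was at 46.3, 41.4 and 45.9 CPM in Vectors and 54.0, 56.8 and 52.0 in FOXL2C134W (0.28 ± 0.07, edgeR adjusted p = 0.0076), and it was also higher than in FOXL2WT (0.35 ± 0.07, edgeR adjusted p = 0.0025). With DESeq2 and transcript length offsets the adjusted p of PPRC1 was 0.39 and 0.11, and the first call was also lost without library B of Vectors (edgeR adjusted p = 0.052). PPARGC1B was at 1.13, 1.73 and 1.64 and 1.78, 2.51 and 3.27 CPM (0.74 ± 0.23, edgeR adjusted p = 0.039), a call lost without any one of 5 of the 6 libraries. The median over the 7 regulators was 0.02. Of 30 assembly factors of the respiratory complexes, only COX17, which carries copper to complex IV, was called, against 14.7% of all genes, and it was lower in FOXL2C134W than in Vectors (-0.28 ± 0.09, edgeR adjusted p = 0.043). That call was lost without any one of the 6 libraries. No assembly factor was called in the other comparisons by edgeR, where the share of all genes called ran from 0.0505% to 11.2%.

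A list of 6 RNAs, MALAT1, NEAT1, KCNQ1OT1, MEG3, SNHG14 and NORAD, was followed as a sign of the nuclear share of the RNA. NORAD is not confined to the nucleus, so the sum over the list does not measure that share. Of 5 tested, NEAT1 was at 50.1, 46.7 and 50.5 CPM in Vectors and 25.3, 29.0 and 34.7 in FOXL2C134W and fell by 0.73 ± 0.09 (edgeR adjusted p = 3.5e-05), while SNHG14 rose by 0.30 ± 0.06 (edgeR adjusted p = 0.0029). NEAT1 also fell in FOXL2WT against Vectors, by 0.53 ± 0.09 (edgeR adjusted p = 0.0018). When FOXO1 was added to FOXL2C134W it fell by 0.62 ± 0.10 (edgeR adjusted p = 0.01), together with the mitochondrial mRNAs, a call lost without any one of 4 of the 6 libraries. With FOXO1 present it was lower with the mutant than with the wild type (log2 -0.87 ± 0.10, edgeR adjusted p = 0.00014). SNHG14 was higher in FOXL2C134W than in FOXL2WT by 0.27 ± 0.06 (edgeR adjusted p = 0.0085). Both calls of SNHG14 were lost with DESeq2 and transcript length offsets (adjusted p = 0.15 and 0.44), and the second also without library B of FOXL2C134W (edgeR adjusted p = 0.057). Summed over the 6 listed RNAs the level was 269.6 to 282 CPM in Vectors, 257 to 259 in FOXL2WT, 253 to 295 in FOXL2C134W, 251 to 256 in FOXL2WT + FOXO1 and 244 to 249 in FOXL2C134W + FOXO1. Their part in the differences of the mitochondrial mRNAs was not tested.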

How the data were processed

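The authors aligned 75-base single-end reads of stranded poly(A) libraries with Salmon 1.1.0 against hg38 and summarized transcripts to genes. The strand setting and annotation release are not given in the sources used here. The deposited gene table holds estimated counts per gene, which were rounded to whole numbers, and the deposited transcript tables hold estimated counts and TPM with effective lengths. All 15 libraries were mapped by title to 5 conditions of 3, and 0 columns of the gene table lacked a sample.

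Genes were filtered with filterByExpr, scaled by TMM and tested with edgeR 4.0.16 (R 4.3.3, limma 3.58.1) by the quasi-likelihood test in one model with a term per condition. Benjamini-Hochberg adjustment ran over all 13868 genes, and calls were made at an adjusted p of 0.05. The 7 comparisons include the interaction. Levels per length were planned as TPM, and CPM per annotated length was shown beside them after the effective lengths were seen. Alternatives were DESeq2 1.42.0, other scalings and filters, offsets for gene length, transcript length and GC content, a replicate block and leaving out each library. The fit was tested on simulated data. Positions and sequences came from hg38 and GENCODE 44. CPM values cover counting error only through the spread of 3 libraries.

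The text names all mitochondrial mRNAs and rRNAs, up to 3 called genes with the smallest adjusted p per nuclear list and comparison, the 5 nuclear copies with the highest mean count, and the transfected genes. The MT- set and the nuclear lists were chosen for description with earlier results of these data known, although the rule for the set reads symbols alone.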

Additional observations from a re-analysis of the deposited data

Results flagged for a closer look

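For 4 genes the effect of FOXO1 with FOXL2C134W differed from its effect with FOXL2WT by the interaction test (edgeR, adjusted over all genes). The difference of effects on the log2 scale was -0.46 for MT-ND1 and -0.68 for MT-ND4L, both subunits of complex I. It was 0.39 for MTERF3, a mitochondrial transcription and ribosome assembly factor, and -0.68 for NEAT1, a nuclear-retained RNA. Each of these calls was lost without at least 3 of the 12 libraries in turn, and those of MT-ND1, MT-ND4L and MTERF3 without 9.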

How the results depend on the processing

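In FOXL2C134W against Vectors the number of called mitochondrial mRNAs stayed at 10 to 12, and against FOXL2WT at 8 to 10, under every alternative and without any one library. Calls over all genes ran from 971 to 2464 and from 761 to 2120 in these fits. The 10 included MT-ND6 with a filter of 1 count in any library and without library A of FOXL2C134W, and MT-CO2 with a gene length offset. In FOXL2WT against Vectors the count of 1 became 2 with DESeq2, a minimum of 10 counts in every library, a gene length offset or a GC offset, 5 with a filter of 1 count in any library and 6 when only the compared groups were fitted, and 0 to 1 with a library left out. For FOXO1 added to FOXL2WT it became 2, and for FOXO1 added to FOXL2C134W 11 in place of 7, with the filter of 1 count in any library, and the latter ran from 0 to 10 with a library left out. The interaction gave 7 calls with DESeq2, 1 with DESeq2 and transcript length offsets, 4 with scaling that left out mitochondrial and transfected genes, 9 with the filter of 1 count, 4 with that of 10 counts, 0 with only the compared groups, 0 with the replicate block, 5 with a gene length offset, 4 with a GC offset, 3 with DESeq2 size factors and 0 to 8 with a library left out. Calls over all genes also moved. The filter of 1 count took them from 842 to 1345 in FOXL2WT against Vectors and from 192 to 551 for the interaction. For FOXO1 added to FOXL2WT it took them from 7 to 260, and for FOXO1 added to FOXL2C134W from 99 to 463. With only the compared groups they were 1690 in FOXL2WT against Vectors and 132 for the interaction. The GC offset gave 161 for the interaction, fewer than 192, with more mRNA calls. The causes of these changes were not tested.

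The mean share of the mRNAs was 0.564, 0.593, 0.786, 0.607 and 0.623 percent by TPM in Vectors, FOXL2WT, FOXL2C134W, FOXL2WT + FOXO1 and FOXL2C134W + FOXO1. With a library left out, the log2 difference of MT-RNR2 in FOXL2C134W against Vectors ran from -0.090 without library C to 7.95e-05 without library A of FOXL2C134W. Against FOXL2WT that of MT-CO3 ran from -0.019 without library C to 0.080 without library B of FOXL2C134W, and that of MT-ND3 from -0.044 without library A to 0.027 without library C of FOXL2WT, with 0.058 under a gene length offset. None of these values passed the test. Of the values of single genes under other settings, 834 kept their side of the threshold, 53 lost a call, 44 gained one and 1 changed sign. With a library left out, 409 kept their side, 123 lost a call, 11 gained one and 3 changed sign. Libraries with the same letter correlated by -0.16 to 0.12 in their deviations from the condition means, so the letters were not taken as pairs. The replicate block gave 8 calls in FOXL2C134W against FOXL2WT. MT-ND6 and the tRNAs did not pass the filter of the reported test. MT-ND6 entered the fit with the 1-count filter and some of those without a library, on few counts.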
